A study of Xenopus laevis with 6 samples.

Results

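The mitochondrial carriers and the protein import machinery were described in Xenopus laevis animal pole explants as 103 homeologous genes of 67 symbols, out of 49281 genes. They were chosen by symbol alone: every gene whose name, without the suffix L or S of the homeolog, begins with slc25a, timm or tomm and a number, or is vdac and a digit. Of the 103 genes 65 are carriers (slc25a), 22 belong to the inner membrane and intermembrane space machinery (timm), 11 to the outer membrane translocase (tomm) and 5 are porins (vdac). X. laevis is allotetraploid, so many symbols have an L and an S copy on homeologous chromosomes. 57 members end in L, 44 in S, and 2 have no suffix. The treated group was wild-type explants kept in K02288/CHIR between stages 9 and 17 and collected at stage 17. K02288 blocks type I receptors of the BMP pathway, and CHIR is the usual short name of a compound that inhibits the kinase GSK3 and so turns on canonical Wnt signalling. Its control was wild-type explants given DMSO over the same stages. The labels call the first neural crest-reprogrammed and the second epidermal. Each group has 3 bulk RNA sequencing libraries, marked a, b and c in the data. The labels do not name clutches, embryos or the number of explants in a library, and the p-values given here therefore reflect only how far these libraries vary, part of which may be technical.

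Most mitochondrial proteins are encoded in the nucleus, made in the cytosol and imported. Precursors enter through the outer membrane translocase, the TOM complex, and those with a presequence go on through the TIM23 complex with the help of a motor on the matrix side. Carriers of the SLC25 family take another route: small Tim chaperones escort them across the intermembrane space to the TIM22 complex, which inserts them into the inner membrane. There each carrier exchanges particular metabolites, such as ADP and ATP, phosphate, citrate, amino acids or glutathione, while the porins of the outer membrane let small molecules pass. Roles are given as known from mammals and yeast.

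Values are normalized counts, reads of a gene divided by the size factor of the library, so they compare libraries for 1 gene and not 1 gene with another of different length. Gene reads numbered 33706389 to 43155031 per library. A gene was tested where its mean over the 6 libraries was at least 10, and was called where the limma adjusted p was under 0.05 over all tested genes. Fold changes are log2 differences of (normalized count + 1), treated over DMSO, with SE. Of 22932 tested genes 55.8% were called, 26.1% higher and 29.7% lower in treated explants. The deposited scaling put the median fold of all genes at 0.01, with 5995 called higher and 6811 lower. Under upper quartile scaling that median was 0.30, with 8113 called higher and 5608 lower. Marker genes were compared with the labelled cell types. Of 18 neural crest homeologs 17 were higher, and their summed count was 101555 to 114378 in treated libraries, against 641 to 900.1 in DMSO libraries, with 3 of them at no read in DMSO. Of 18 epidermal homeologs 15 were lower and 2 higher, with sums of 200073 to 427749 in treated and 1192109 to 1404303 in DMSO libraries and none at 0. Ionocytes, also called mitochondrion-rich cells, and multiciliated cells are set into the larval epidermis and hold many mitochondria. All 18 tested ionocyte homeologs were lower, with sums of 1582 to 2848 in treated and 43720.3 to 58309 in DMSO libraries, and atp6v0d2.S, a subunit of their proton pump, had no read in treated libraries. Of 20 multiciliated homeologs 18 were lower, with sums of 1081 to 3726 in treated and 57752 to 66429.5 in DMSO libraries. Of 4 tested mesoderm and muscle homeologs 1 was higher and 1 lower. Treated library a held the highest treated sum of the epidermal, ionocyte and multiciliated lists, 427749 counts of epidermal markers against 200073 in library c, and in these sums it lay closest to the controls. In bulk RNA fewer cells of a type and less RNA per cell cannot be told apart, and the part of these cell types in the results on carriers and import genes was not tested.

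More import genes were called higher than lower, and more carriers lower than higher, a split chosen after these values were seen. Of 103 members 94 passed the filter on low values, and 58 of the 94 (61.7%) were called, beside the 55.8% of all tested genes: 27 were higher (28.7%, against 26.1% of all genes) and 31 lower (33.0%, against 29.7%). Among the 33 tomm and timm genes, all of which passed the filter, 17 were higher (51.5%) and 3 lower (9.1%), with a median log2 fold of 0.52. Of the 57 tested slc25a carriers 10 were higher (17.5%) and 27 lower (47.4%), with a median of -0.62. For comparison the median of all tested genes was 0.01. Under upper quartile scaling the medians stood at 0.81 for import genes, -0.32 for carriers and 0.30 for all genes. With that scaling 21 import genes were called higher and 1 lower, and 13 carriers higher and 25 lower. Without treated library c the import genes called higher numbered 11. In that fit 4591 of 22881 tested genes were called higher, against 5995 of 22932 with all libraries. Lower import genes numbered 1 without treated c and without DMSO a, b or c. Of all genes 5712 to 5911 were called lower in those fits, against 6811 with all libraries. Without treated library a the counts were 16 higher and 3 lower import genes, and 10 higher and 26 lower carriers. A change of at least 2-fold was called for 7 higher and 2 lower import genes and for 4 higher and 23 lower carriers, where 15.9% of all genes were called higher and 24.4% lower by that size. Those lower carriers include slc25a4.L, slc25a18.S and slc25a38.S, and the higher ones include slc25a22.L. All of these reached the filter only through the group in which they were high, so their large folds give no separate support. The 2 groups of libraries did not overlap for 65 of the 94 members (69.1%), beside 64.9% of all tested genes.

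**Figure D1:**
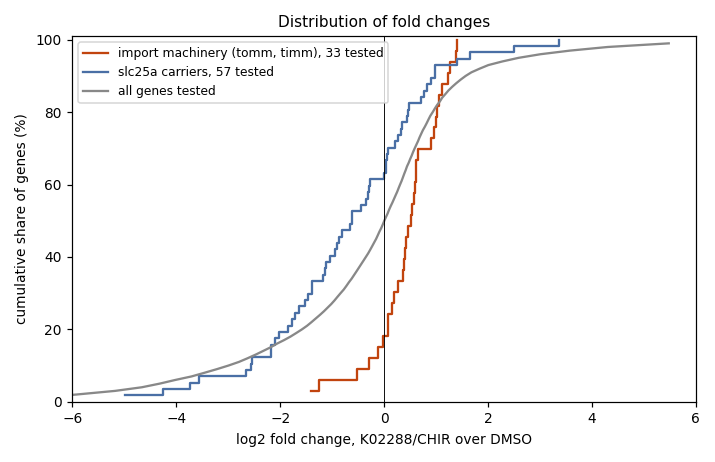
Cumulative share of genes (vertical, %) by log2 fold change of K02288/CHIR over DMSO explants (horizontal) for 33 import genes, 57 carriers and all tested genes. The curves cross 50% at 0.52 for import genes, -0.62 for carriers and 0.01 for all genes.

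The outer membrane translocase was higher in treated explants in 7 of 11 homeologs (63.6%, against 26.1% of all genes), and none was lower. The largest change was that of tomm22.L, the central receptor that also organizes the complex. It had 2226, 2205 and 2704 normalized counts in treated libraries a, b and c, against 928, 769 and 1062 in DMSO libraries. Every treated library was above every DMSO library, and the log2 fold was 1.38 ± 0.17 (limma adjusted p = 0.000682). Of the small subunits that sit beside the pore, tomm5.L had 1996, 2288.2 and 2171 in treated libraries, against 1015, 1152 and 1157 in DMSO libraries, a fold of 0.96 ± 0.13 (limma adjusted p = 0.000924), again without overlap. tomm6.S and tomm7.L, the other small subunits, rose by less, 0.43 ± 0.15 and 0.54 ± 0.14. The pore itself, tomm40, rose in both copies. tomm40.L had 3497, 3889.8 and 3545 in treated libraries, against 2515, 2497 and 2319.5 in DMSO libraries (0.58 ± 0.11, limma adjusted p = 0.00427), and tomm40.S had 3558, 3756 and 3459.9 in treated libraries, against 2635, 3072 and 2542 in DMSO libraries (0.39 ± 0.12, limma adjusted p = 0.0299). The other receptors, tomm20 for presequences and tomm70 for carrier precursors, did not pass. tomm20.L had 1683, 1891 and 2086 in treated libraries, against 1958, 2484 and 2499.9 in DMSO libraries (95% interval of the log2 fold -0.65 to 0.07, limma adjusted p = 0.144), and tomm20.S had 1714, 2339 and 2498 in treated libraries, against 1677, 2025 and 2113 in DMSO libraries (interval -0.27 to 0.59, adjusted p = 0.484). For tomm70.S, the receptor that docks chaperone-bound carriers, the counts were 4953, 4056 and 4644 in treated libraries, against 5552, 4295 and 4912 in DMSO libraries, with an interval of -0.44 to 0.23 (limma adjusted p = 0.542). The 2 groups overlapped for all 3 of these receptor genes. tomm40l.L, a paralog of the pore, was higher at 1.27 ± 0.43 from means of 70.9 in treated and 27.6 in DMSO explants, and tomm40l.S did not pass (interval -0.52 to 0.90). Several of these calls were near the threshold. That of tomm40.S was lost without treated b (adjusted p = 0.0837), treated c (0.0626), DMSO a (0.0881) or DMSO c (0.0933), that of tomm6.S without treated b (0.0915), treated c (0.133), DMSO a (0.129) or DMSO b (0.0955) and under TMM scaling (0.0588), that of tomm7.L without treated c (0.0508), and that of tomm40l.L without any of the libraries but treated b (from 0.0589 without DMSO a to 0.13 without treated c). The calls of tomm40.S, tomm6.S and tomm40l.L were also lost with no filter on low values.

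In the TIM23 complex, the channel for presequence proteins, 4 of 9 homeologs were higher (44.4%) and 2 lower (22.2%). Of all genes 26.1% were higher and 29.7% lower. timm50, the receptor on the side of the intermembrane space, rose in both copies. timm50.S had 306, 482 and 398 normalized counts in treated libraries a, b and c, against 217, 233 and 179 in DMSO libraries (log2 fold 0.90 ± 0.23, limma adjusted p = 0.0147), and timm50.L had 78.2, 96.9 and 113 in treated libraries, against 38.6, 61.1 and 27.2 in DMSO libraries (1.23 ± 0.38, limma adjusted p = 0.0285). For both copies each treated library was above each DMSO library. The channel subunit timm23.L showed no call, with 949, 936 and 1106 in treated libraries, against 867, 988 and 979 in DMSO libraries and a 95% interval of the log2 fold of -0.25 to 0.41 (limma adjusted p = 0.67). Its partner timm17a, which forms the channel with it, split by homeolog: timm17a.L fell, with 1601, 816 and 908 in treated libraries, against 3103, 2371 and 3011 in DMSO libraries (-1.41 ± 0.27, limma adjusted p = 0.00429). timm17a.S rose, with 1377, 1348 and 1595 in treated libraries, against 902, 909 and 986 in DMSO libraries (0.62 ± 0.13, limma adjusted p = 0.00639). Neither copy's groups overlapped, and treated library a had the highest timm17a.L count of the treated libraries. timm17b.S, the alternative form of this subunit, fell by 1.25 on the log2 scale, with 47.1, 48.9 and 20.98 in treated libraries, against 79.9, 92.2 and 93.9 in DMSO libraries (limma adjusted p = 0.0319). timm44.S, which tethers the import motor to the channel, was higher by 0.45 ± 0.15 (limma adjusted p = 0.0362), and the 2 copies of timm21, which links TIM23 to the respiratory chain, did not pass (intervals -0.24 to 1.28 for L and -0.50 to 0.66 for S). timm21.L passed without treated library a (adjusted p = 0.0488). The call of timm50.L was lost without treated b (adjusted p = 0.0682), treated c (0.0899), DMSO a (0.0753) or DMSO c (0.0823), and that of timm50.S without DMSO c (0.0513). That of timm17b.S was lost without treated c (0.0565), DMSO a (0.0685), b (0.0876) or c (0.0896) and under upper quartile scaling (0.0659), and that of timm44.S without any of the libraries but DMSO c (0.0578 to 0.114) and with no filter on low values (0.06).

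The small Tims and the TIM22 complex, which deliver and insert the carriers themselves, were higher in 6 of 13 homeologs and lower in 1. These shares were 46.2% and 7.7%, against 26.1% and 29.7% of all genes. The largest rise was that of timm8a.L, a chaperone that works with timm13, with 675, 883 and 1203 normalized counts in treated libraries a, b and c, against 298, 338 and 375 in DMSO libraries (log2 fold 1.41 ± 0.24, limma adjusted p = 0.00249). timm13 again split by copy: timm13.L had 1071, 973 and 1354 in treated libraries, against 474, 509 and 567 in DMSO libraries (1.12 ± 0.17, limma adjusted p = 0.00175). timm13.S had 234, 228 and 204 in treated libraries, against 348, 303 and 306 in DMSO libraries (-0.52 ± 0.18, limma adjusted p = 0.0394). The L copy's treated libraries were above, and the S copy's below, all of their DMSO libraries. The other chaperone pair is timm9 with timm10. timm9.L had 1237, 1225 and 1422 in treated libraries, against 575, 586 and 719 in DMSO libraries (1.05 ± 0.15, limma adjusted p = 0.00135), timm10.L was higher by 0.66 ± 0.12 and timm10.S by 1.02 ± 0.19, all without overlap. timm9.S, with 102, 103 and 162 in treated libraries, against 75.3, 94.3 and 69.2 in DMSO libraries, did not pass (limma adjusted p = 0.128), and passed under upper quartile scaling (0.0427). Of the TIM22 complex proper, timm29.S, a subunit known from human cells, had 1574, 1908 and 1766 in treated libraries, against 930.3, 771 and 933 in DMSO libraries (1.00 ± 0.15, limma adjusted p = 0.0014), while timm29.L had 522, 511 and 612 in treated libraries, against 549, 543 and 562 in DMSO libraries (interval -0.36 to 0.34). The channel gene timm22.S had 2010.1, 1474 and 1766 in treated libraries, against 1389.5, 1088 and 1493 in DMSO libraries and missed the threshold (limma adjusted p = 0.0953). It passed with libraries of the same letter as blocks (0.0349) and under upper quartile scaling (0.0101). timm8b.S passed in the same 2 settings (0.0465 and 0.0166) and not otherwise (limma adjusted p = 0.0669). timm8b.L and timm10b.S did not pass with the deposited scaling, and timm10b.S did under upper quartile scaling (0.0309). The fall of timm13.S was lost without any of the libraries but treated a (adjusted p from 0.0669 without treated b to 0.127 without DMSO a), under upper quartile scaling (0.284) and with no filter on low values (0.0669).

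**Figure D2:**
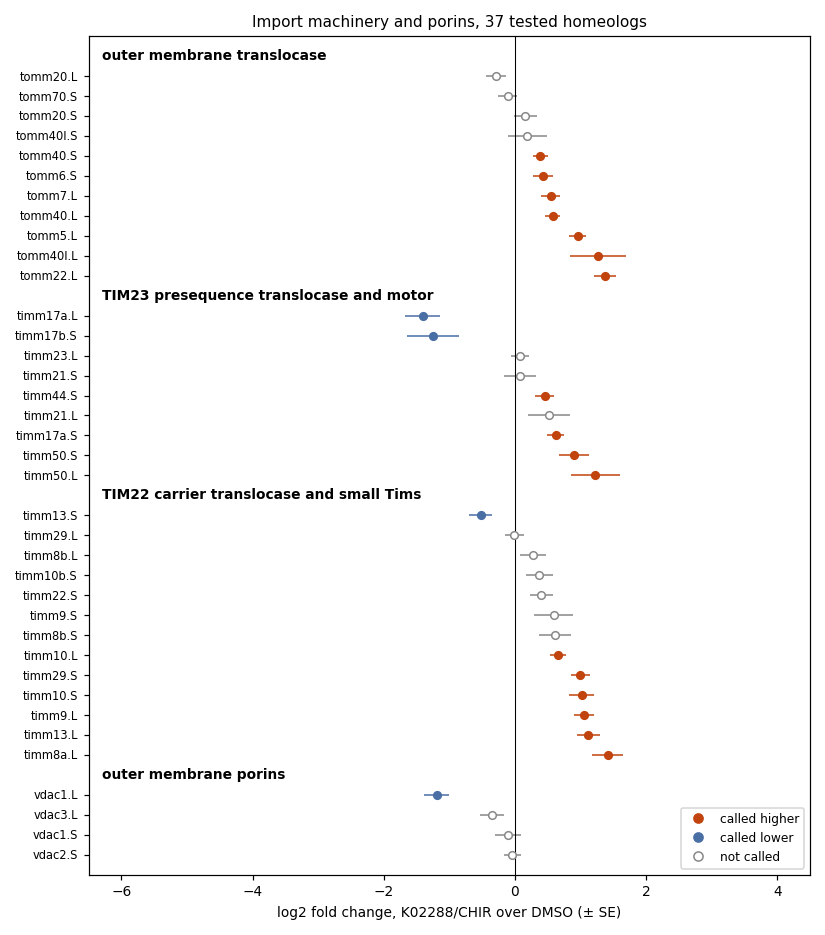
Log2 fold change of K02288/CHIR over DMSO explants with its SE (horizontal) for each tested homeolog of the import machinery and the porins, ordered by fold within each group, with filled points for genes called by limma and open points for the others. The 17 higher import genes lie between 0.39 and 1.41, and the lower ones are timm17a.L, timm17b.S and timm13.S, with vdac1.L among the porins.

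Import partners under other names were called in 1 direction only. Of 35 tested homeologs on a list of Tim and Tom partners, chaperones and processing peptidases, 7 were higher and none lower, with a median log2 fold of 0.27. The largest rise was that of mtx2.L, metaxin, which works with the outer membrane assembly machinery, with 292, 685 and 627 in treated libraries, against 47.8, 86.0 and 79.0 in DMSO libraries (2.85 ± 0.40, limma adjusted p = 0.00119). chchd4.S, the oxidoreductase that traps small Tims in the intermembrane space by forming their disulfides, had 1186, 1624 and 2114 in treated libraries, against 259, 344 and 329 in DMSO libraries (2.37 ± 0.24, limma adjusted p = 0.000369). The share called higher on that list was 20.0%, below the 26.1% of all genes, and the share called lower was 0% against 29.7%.

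The porins, which make the outer membrane permeable to metabolites, had 1 of 4 tested homeologs lower (25.0%, against 29.7% of all genes) and none higher. vdac1.L fell, with 1069.6, 739 and 842 normalized counts in treated libraries a, b and c, against 1730.2, 2327 and 1981 in DMSO libraries (log2 fold -1.19 ± 0.19, limma adjusted p = 0.00187), and every treated library was below every DMSO library. vdac1.S had 621, 996 and 851 in treated libraries, against 854, 899 and 858 in DMSO libraries (95% interval -0.57 to 0.35), and vdac2.S had 2432, 2143 and 2630.2 in treated libraries, against 2548, 2239 and 2609 in DMSO libraries (interval -0.35 to 0.27). The 2 groups overlapped for both. vdac3.L had 2403, 2707 and 2946 in treated libraries, against 2724, 3487 and 4161 in DMSO libraries and did not pass (limma adjusted p = 0.139), but did so, lower, with blocks by letter (0.0461) and without DMSO a (0.044). vdac3.S was close to silent, with 0 reads over the treated and 3 over the DMSO libraries.

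The ADP/ATP carriers exchange matrix ATP for cytosolic ADP, and the phosphate carrier slc25a3 supplies the other substrate of ATP synthesis. slc25a5.L was not called: it had 86360.2, 82944 and 96431 normalized counts in treated libraries a, b and c, against 81835, 93617 and 91806 in DMSO libraries, with a log2 fold of -0.01 ± 0.12 and a 95% interval of -0.30 to 0.28 (limma adjusted p = 0.958). Its homeolog slc25a5.S rose, with 11123, 10767 and 11496 in treated libraries, against 6339.6, 5094 and 5657 in DMSO libraries (0.97 ± 0.12, limma adjusted p = 0.000707). The groups overlapped for the L copy and were far apart for the S copy. slc25a3.S rose as well, with 11102, 10007 and 11291 in treated libraries, against 7909, 7272 and 7897 in DMSO libraries (0.49 ± 0.11, limma adjusted p = 0.00765). slc25a3.L, with 14914, 14353 and 15793 in treated libraries, against 12089, 13077 and 13534 in DMSO libraries, did not pass, though no treated library overlapped the DMSO libraries (0.22 ± 0.11, limma adjusted p = 0.116), except under upper quartile scaling (0.00786). slc25a4.L, the ADP/ATP carrier of heart and muscle in mammals, was at few counts throughout and fell, with 0, 4.45 and 9.54 in treated libraries, against 25.7, 55.9 and 61.8 in DMSO libraries (-3.57 ± 0.91, limma adjusted p = 0.0143). It reached the filter through the DMSO libraries only, its call was lost without DMSO c (0.0522), and its fold was -2.59 without treated a, -4.29 without treated c and -2.50 with a pseudocount of 5. slc25a4.S had 0 reads over the treated libraries and 1 over the DMSO libraries.

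Of 9 carriers of carboxylates and fatty acyl groups 2 were called, both lower (22.2%, against 29.7% of all genes). slc25a1.L, the citrate carrier that exports citrate for fatty acid and sterol synthesis, showed the larger of the 2 falls, with 3234, 1460.2 and 1781 normalized counts in treated libraries a, b and c, against 13553, 11409 and 13550.5 in DMSO libraries. Every treated library was below every DMSO library, and the log2 fold was -2.65 ± 0.29 (limma adjusted p = 0.000442). A second gene of that name, slc25a1-b, had 2974, 1687 and 2120.0 in treated libraries, against 2641, 1654 and 2157 in DMSO libraries and did not pass (interval -0.55 to 0.66). slc25a20.S, which brings acylcarnitines in for oxidation, had 472, 358 and 259 in treated libraries, against 841, 619 and 744 in DMSO libraries (-1.05 ± 0.25, limma adjusted p = 0.0113), and slc25a20.L had 648, 1014 and 642 in treated libraries, against 900.0, 996 and 830.0 in DMSO libraries and did not pass (limma adjusted p = 0.311) except without treated b (0.0455). The dicarboxylate carrier slc25a10.L, the oxodicarboxylate carrier slc25a21.L and slc25a34.L, whose substrate is less settled, were not called (intervals -0.67 to 0.74, -0.55 to 0.64 and -0.96 to 0.28). Both copies of the oxoglutarate-malate carrier slc25a11 missed the threshold and passed, higher, without DMSO c (0.0434 for L and 0.0414 for S).

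Among amino acid carriers 7 of 11 tested homeologs were lower (63.6%, against 29.7% of all genes) and 2 higher (18.2%, against 26.1%). Of these calls slc25a18.S and slc25a38.S, lower, and slc25a22.L, higher, entered the test only through the group in which they were high. slc25a29, the carrier of basic amino acids, fell in both copies. slc25a29.L had 1039, 445 and 1070.0 normalized counts in treated libraries a, b and c, against 3094, 2423 and 3139.7 in DMSO libraries (log2 fold -1.86 ± 0.35, limma adjusted p = 0.00385), and slc25a29.S had 151, 99.6 and 92.5 in treated libraries, against 546, 463 and 445 in DMSO libraries (-2.10 ± 0.25, limma adjusted p = 0.000607). The aspartate-glutamate carrier slc25a13, citrin, part of the malate-aspartate shuttle and the urea cycle, did the same. slc25a13.L had 2015, 2453 and 2018 in treated libraries, against 3794, 4144 and 4223 in DMSO libraries (-0.91 ± 0.13, limma adjusted p = 0.00119), and slc25a13.S had 148, 137 and 198 in treated libraries, against 344, 303 and 408 in DMSO libraries (-1.13 ± 0.23, limma adjusted p = 0.00544). For all 4 genes the treated libraries lay below the DMSO libraries. Its paralog slc25a12.L was at 7.54 to 16.6 counts in all 6 libraries (interval -1.43 to 0.86). The glutamate carrier paralogs went apart at low counts, chosen here after their values were seen: slc25a18.S had 5.65, 1.78 and 0.954 in treated libraries, against 79.0, 55.9 and 54.3 in DMSO libraries (-4.26 ± 0.57, limma adjusted p = 0.000987). slc25a22.L had 23.6, 14.2 and 32.4 in treated libraries, against 4.59, 1.04 and 0 in DMSO libraries (3.37 ± 0.76, limma adjusted p = 0.00851). Both reached the filter through 1 group only, and with a pseudocount of 5 their folds were -3.15 and 2.05. The fold of slc25a22.L was 4.02 without DMSO a. slc25a44, which carries branched-chain amino acids, split by copy, with slc25a44.L at 841, 764 and 978 in treated libraries, against 546, 434 and 474 in DMSO libraries (0.83 ± 0.17, limma adjusted p = 0.0054) and slc25a44.S at 346, 323 and 289 in treated libraries, against 565, 489 and 421 in DMSO libraries (-0.62 ± 0.18, limma adjusted p = 0.0247). A gene named slc25a44 with no suffix did not pass (limma adjusted p = 0.0667) and did in the DESeq2 test (0.0486). The call of slc25a44.S was lost under upper quartile scaling (0.157) and without treated b (0.0523), treated c (0.0751), DMSO a (0.0888) or DMSO b (0.0704), and that of slc25a38.S, the glycine carrier (-1.78 ± 0.51), which reached the filter through the DMSO libraries only, without treated b (0.0546) or c (0.0663).

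Among carriers for iron, glutathione and proton leak 3 of 9 homeologs were higher (33.3%) and 4 lower (44.4%). Of all genes 26.1% were higher and 29.7% lower. The largest rise among carriers with a mean of at least 50 was that of slc25a40.L, a glutathione importer, which had 519, 516 and 799 normalized counts in treated libraries a, b and c, against 98.3, 112 and 104 in DMSO libraries (log2 fold 2.51 ± 0.23, limma adjusted p = 0.000272). Its paralog slc25a39.L, the better studied glutathione importer, had 333, 253 and 535 in treated libraries, against 782, 1348 and 1035 in DMSO libraries (-1.53 ± 0.32, limma adjusted p = 0.00645). Thus the treated libraries were all above DMSO for 1 of these importers and all below it for the other. slc25a30, an uncoupling-protein-like carrier, did so between homeologs. slc25a30.L had 1672, 805 and 1182 in treated libraries, against 4013, 3553 and 3986 in DMSO libraries (-1.72 ± 0.26, limma adjusted p = 0.00153), and slc25a30.S had 466, 371 and 362 in treated libraries, against 121, 128 and 125 in DMSO libraries (1.66 ± 0.19, limma adjusted p = 0.000595). slc25a27.L, also called UCP4 and known from the mammalian nervous system, had 195, 158 and 165 in treated libraries, against 69.8, 64.2 and 60.5 in DMSO libraries (1.40 ± 0.23, limma adjusted p = 0.00236). The mitoferrins slc25a37 and slc25a28 bring iron in for haem and iron-sulfur cluster synthesis. slc25a28.L had 516, 376 and 421 in treated libraries, against 1069.9, 1002 and 782 in DMSO libraries (-1.12 ± 0.19, limma adjusted p = 0.00285), and slc25a37.S had 24.5, 10.7 and 16.2 in treated libraries, against 93.7, 58.0 and 85.2 in DMSO libraries (-2.18 ± 0.42, limma adjusted p = 0.00429). Their homeologs did not pass: slc25a28.S had 526, 470.4 and 632 in treated libraries, against 525, 376 and 317 in DMSO libraries (limma adjusted p = 0.15; 0.0332, higher, under upper quartile scaling), and slc25a37.L had 39.6, 26.7 and 33.4 in treated libraries, against 50.5, 36.3 and 37.1 in DMSO libraries (limma adjusted p = 0.474).

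Nucleotide and cofactor carriers were mixed, with 3 of 15 tested homeologs higher and 6 lower. These shares were 20% and 40%, against 26.1% and 29.7% of all genes. slc25a17, the carrier of coenzyme A and flavin nucleotides that sits in the peroxisome and not in the mitochondrion, went apart by homeolog. slc25a17.L had 1676, 1579 and 1999 normalized counts in treated libraries a, b and c, against 1026, 1049 and 747 in DMSO libraries (log2 fold 0.91 ± 0.18, limma adjusted p = 0.0052), and slc25a17.S had 875, 767 and 771 in treated libraries, against 1605, 1287 and 1545 in DMSO libraries (-0.87 ± 0.14, limma adjusted p = 0.00233). The other 2 that rose were slc25a26.L, the carrier of S-adenosylmethionine, with 548, 705 and 534 in treated libraries, against 361, 366 and 316 in DMSO libraries (0.77 ± 0.18, limma adjusted p = 0.00957), and slc25a25.S, a calcium-regulated exchanger of ATP-Mg for phosphate, with 581, 523 and 581 in treated libraries, against 327, 277 and 256 in DMSO libraries (0.97 ± 0.17, limma adjusted p = 0.00286). slc25a25.L had 609, 1079.6 and 1054 in treated libraries, against 1100.2, 1884 and 1317 in DMSO libraries and did not pass (limma adjusted p = 0.0932) except with blocks by letter (0.0183). slc25a24 is another exchanger of that kind. slc25a24.S had 3262, 1069 and 1152 in treated libraries, against 5198, 3709 and 3796 in DMSO libraries (-1.40 ± 0.42, limma adjusted p = 0.0276), a call lost in the edgeR test (0.0669) and without any of the libraries but treated a (0.055 to 0.0926). slc25a24.L had 4134, 2146 and 3137 in treated libraries, against 5226, 2996 and 4392 in DMSO libraries and passed only with blocks by letter (limma adjusted p = 0.243, or 0.0162 with blocks). The pyrimidine nucleotide carrier slc25a36.S fell, with 137, 107 and 83.9 in treated libraries, against 353, 243 and 304 in DMSO libraries (-1.46 ± 0.27, limma adjusted p = 0.00349), and slc25a36.L did not pass (161, 179 and 157 in treated libraries, against 141, 139 and 132 in DMSO libraries; interval -0.20 to 0.74). The coenzyme A carrier slc25a42.L fell, with a log2 fold of -1.39 ± 0.40. slc25a23.L, another ATP-Mg exchanger, was at -2.02 ± 0.60, and at -2.69 without treated a. The call of slc25a42.L was lost without treated b (0.0582), DMSO b (0.0557) or DMSO c (0.0772), and that of slc25a23.L in the edgeR test (0.06) and without any of the libraries but treated a (0.0605 to 0.0773). The NAD carrier slc25a51 did not pass in either copy, with slc25a51.L at a limma adjusted p of 0.0557, or 0.042 in the DESeq2 test and 0.0175 under upper quartile scaling, nor did slc25a32.L (interval -0.39 to 1.06).

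Carriers to which no substrate was assigned here were lower in 7 of 8 tested homeologs (87.5%, against 29.7% of all genes), and none was higher. slc25a45.L had the largest fall of all members by fitted fold, with 34.9, 0 and 10.5 normalized counts in treated libraries a, b and c, against 159, 219 and 375 in DMSO libraries (log2 fold -4.99 ± 1.22, limma adjusted p = 0.012). The fold was -6.12 without treated a, -3.54 without treated b, -4.02 in the edgeR test, -4.06 in the DESeq2 test and -4.05 with a pseudocount of 5. slc25a22l, a gene named for its likeness to a glutamate carrier, fell in both copies. slc25a22l.L had 289, 58.7 and 88.7 in treated libraries, against 1516, 1543 and 1569 in DMSO libraries (-3.74 ± 0.54, limma adjusted p = 0.00133), and slc25a22l.S had 2936, 560.3 and 616 in treated libraries, against 6217, 5417 and 5872 in DMSO libraries (-2.53 ± 0.60, limma adjusted p = 0.0103). Treated library a stood several-fold above libraries b and c for both copies, and without it the folds were -4.40 for L and -3.31 for S. slc25a43.L was even across libraries, with 42.4, 49.8 and 32.4 in treated libraries, against 249, 237 and 253 in DMSO libraries (-2.56 ± 0.26, limma adjusted p = 0.000353). slc25a46, an outer membrane protein of the family with a role in mitochondrial fusion and fission, fell, with folds of -2.17 ± 0.38 for S and -1.63 ± 0.53 for L, as did slc25a16.S with -1.18 ± 0.28, while slc25a16.L did not pass (interval -2.39 to 0.50). The call of slc25a46.L was lost without any of the libraries but DMSO a (0.0531 to 0.118) and under upper quartile scaling (0.0677).

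**Figure D3:**
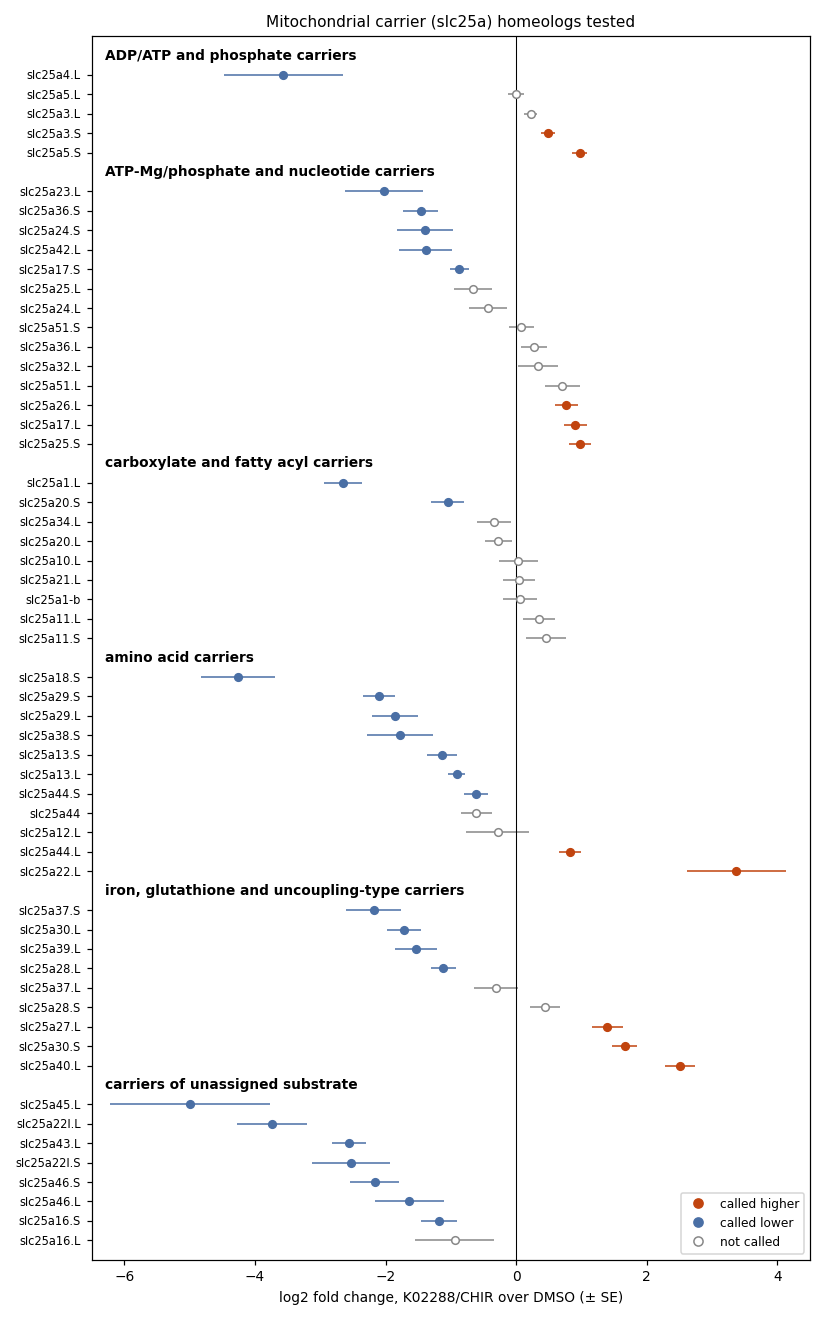
Log2 fold change of K02288/CHIR over DMSO explants with its SE (horizontal) for the tested carrier homeologs except 1 that is not shown, grouped by substrate, with filled points for genes called by limma and open points for the others. The 27 lower carriers reach from -0.62 for slc25a44.S to -4.99 for slc25a45.L, and the 10 higher ones from 0.49 for slc25a3.S to 3.37 for slc25a22.L.

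**Figure D4:**
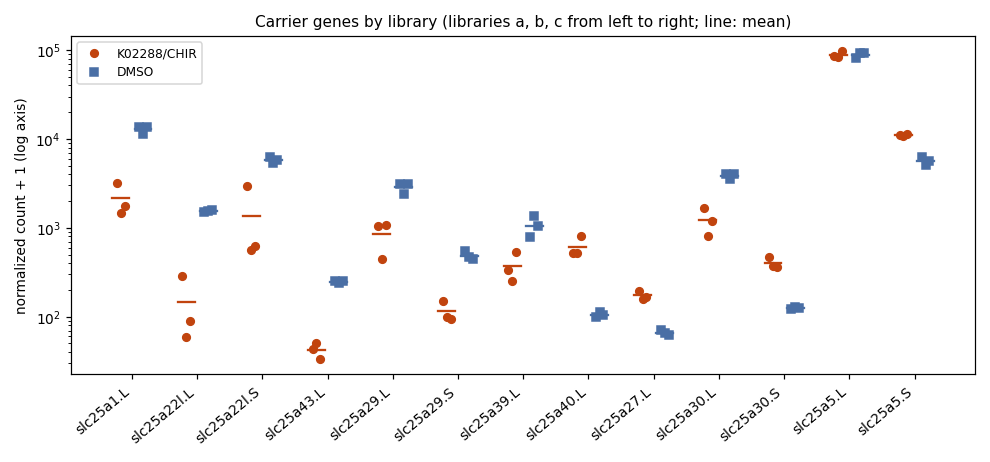
Normalized count + 1 on a log axis (vertical) of 13 carrier genes in each treated library (left of each pair) and DMSO library (right), with group means as lines. Treated library a lies above b and c for slc25a1.L and both copies of slc25a22l, slc25a39.L and slc25a40.L move in opposite directions, and slc25a5.L is level while slc25a5.S is higher in treated explants.

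Of 31 lower members 22 (71.0%) had their highest treated count in library a, the library closest to the controls by epidermal markers, beside 64.6% of all lower genes. Of 27 higher members 9 (33.3%) had their lowest treated count there, beside 45.4% of all higher genes. The median difference of import genes from the DMSO mean was 0.52, 0.43 and 0.61 on the log2 scale in treated libraries a, b and c. That of carriers was -0.60, -0.60 and -0.58. Both medians cover all tested genes of a set, called or not, and cannot show how library a lay for single members.

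In 15 of 30 pairs the homeologs changed by different amounts. The change of the L to S ratio itself was tested by limma across the 5796 pairs in which both copies passed the filter, and 38.0% of all pairs were called. Of the 30 member pairs 15 (50%) were called, 6 towards L and 9 towards S in treated explants. In 5 of the 30 (16.7%) the copies were each called in opposite directions, which was so for 3.78% of all pairs. They were slc25a30, timm17a, slc25a17, timm13 and slc25a44. The count was 3 (10%) without treated b, treated c, DMSO a or DMSO b, where the calls of timm13.S and slc25a44.S were lost, beside 2.21% to 2.73% of all pairs in those fits. The share of the pair's counts that came from slc25a30.L was 78.2, 68.5 and 76.5% in treated libraries, against 97.1, 96.5 and 97.0% in DMSO libraries, a change of -3.38 ± 0.23 in the log2 ratio (limma adjusted p = 0.000317). For timm17a.L the share was 53.8, 37.7 and 36.3% in treated libraries, against 77.5, 72.3 and 75.3% in DMSO libraries (-2.03 ± 0.29, limma adjusted p = 0.00262). The slc25a17.L share was 65.7, 67.3 and 72.2% in treated and 39.0, 44.9 and 32.6% in DMSO libraries (1.78 ± 0.23, limma adjusted p = 0.00179). The mitoferrin slc25a37 (61.8, 71.4 and 67.3% L in treated and 35.03, 38.5 and 30.3% in DMSO libraries; 1.88 ± 0.41, limma adjusted p = 0.0123) and slc25a36 (54.1, 62.6 and 65.2% L in treated and 28.5, 36.3 and 30.3% in DMSO libraries; 1.73 ± 0.31, limma adjusted p = 0.00597) also moved towards L. timm13.L held 82.1, 81.0 and 86.9% of its pair in treated and 57.7, 62.6 and 64.9% in DMSO libraries (1.64 ± 0.24, limma adjusted p = 0.0032). slc25a25 moved towards S (51.2, 67.4 and 64.5% L in treated and 77.1, 87.2 and 83.7% in DMSO libraries; -1.63 ± 0.35, limma adjusted p = 0.0111). The other called pairs were slc25a44 and slc25a24 towards L, and slc25a28, slc25a22l, vdac1, timm29, slc25a5 and tomm20 towards S. The smallest of these changes, that of tomm20, was -0.45 ± 0.12 (limma adjusted p = 0.0246) and came without a call for either copy alone. The pair calls of tomm20, vdac1 and slc25a24 were lost without any of the libraries but treated a (adjusted p 0.0615 to 0.0796 for tomm20, 0.059 to 0.0888 for vdac1 and 0.0549 to 0.103 for slc25a24). With blocks by letter slc25a20 (0.0317) and slc25a3 (0.0319) were called too, against 0.0934 and 0.0548 without blocks, as they were without treated a for slc25a20 (0.0132) and without DMSO a for slc25a3 (0.0408).

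**Figure D5:**
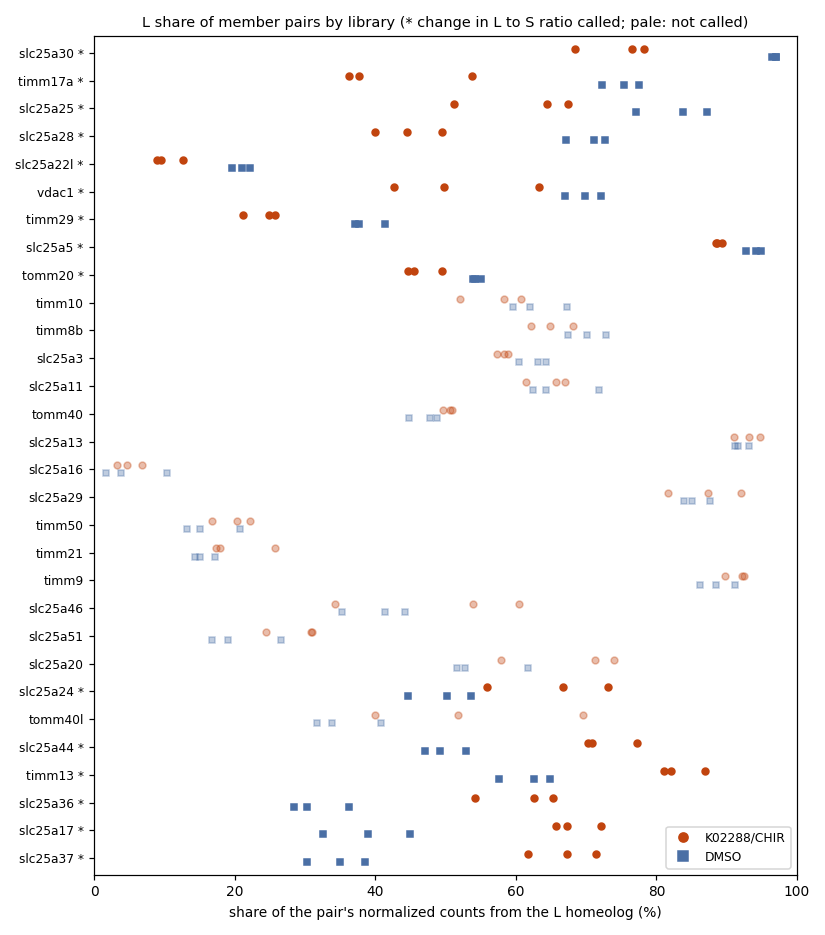
Share of a pair's normalized counts that came from the L homeolog (horizontal, %) in each treated library (circles, upper row of a pair) and DMSO library (squares, lower row) for the 30 member pairs, ordered by the change in the L to S ratio. Pairs at the top moved towards S and those at the bottom towards L in treated explants, and the 15 called pairs are drawn in full colour with an asterisk.

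When the L and S counts of a symbol were added before the same fit, some symbols with opposite copies were not called. slc25a17 was then at 0.08 ± 0.12 (limma adjusted p = 0.616) and slc25a44 at 0.28 ± 0.15 (0.146), neither called. slc25a5 was at 0.07 ± 0.11 (0.611), and the L copy held 88.5% to 94.8% of its counts. slc25a30 was lower in sum at -1.34 ± 0.22 (0.00227) and timm17a at -0.57 ± 0.16 (0.0203), while timm13 was higher at 0.69 ± 0.14 (0.00658). Where both copies moved the same way the direction of the sum was given in advance, so only its size is of interest. It was -1.88 ± 0.31 (0.00243) for slc25a29, -0.93 ± 0.12 (0.000895) for slc25a13, 0.48 ± 0.11 (0.00792) for tomm40, 0.80 ± 0.12 (0.0017) for timm10 and 0.96 ± 0.23 (0.0118) for timm50. The read counter set reads with several alignments aside, so the level of a copy is uncertain where L and S are near-identical.

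Of mitochondrial transporters outside the slc25a names 11 of 29 tested homeologs were lower and 4 higher (37.9% and 13.8%, against 29.7% and 26.1% of all genes). The largest falls were those of mpc2.S, a subunit of the pyruvate carrier, with 807, 346 and 248 in treated libraries, against 4047, 3909.9 and 4873 in DMSO libraries (-3.37 ± 0.41, limma adjusted p = 0.000674), and of tspo.L, an outer membrane protein linked to cholesterol, with 338, 310.4 and 554 in treated libraries, against 1004, 867 and 1611 in DMSO libraries (-1.53 ± 0.31, limma adjusted p = 0.00562). The largest rises were those of letm1.S, an inner membrane cation exchanger (0.88 ± 0.19), and sfxn1.L, a serine transporter (0.80 ± 0.17). Genes that shape the inner membrane and drive fusion and fission gave 3 higher and 2 lower of 25. Those counts were 12% and 8% of the list, below the 26.1% and 29.7% of all genes. Of these genes mfn2, a fusion GTPase, split by copy, with mfn2.S higher by 1.11 ± 0.20 and mfn2.L at -1.35 ± 0.19. The respiratory chain and ATP synthase, taken by symbol, had 15 higher and 15 lower of 136 homeologs and a median of -0.01. Each count was 11.0% of the list, also below the shares of all genes. Regulators of mitochondrial biogenesis moved in both directions, 9 higher and 5 lower of 18. These shares were 50% and 27.8%, against 26.1% and 29.7% of all genes, so only the share of rises was above that of all genes. pprc1.L, a coactivator of the PGC-1 family, had 6925, 5885 and 7572 in treated libraries, against 1435, 1385 and 1246 in DMSO libraries (2.32 ± 0.14, limma adjusted p = 8.94e-05), while ppargc1b, another member of that family, split by copy: ppargc1b.S had 78.2, 56.9 and 38.1 in treated libraries, against 17.4, 20.7 and 8.65 in DMSO libraries (1.85 ± 0.47, limma adjusted p = 0.0143), and ppargc1b.L had 26.4, 9.78 and 20.0 in treated libraries, against 101.02, 71.5 and 74.1 in DMSO libraries (-2.16 ± 0.44, limma adjusted p = 0.0055). esrra.L, an orphan nuclear receptor that works with PGC-1 coactivators, had 188, 86.3 and 66.8 in treated libraries, against 2890.1, 3222 and 3800.5 in DMSO libraries (-4.99 ± 0.37, limma adjusted p = 0.000148), and ppargc1a.L, PGC-1 alpha itself, had 33.0, 22.2 and 13.4 in treated libraries, against 375, 321 and 343 in DMSO libraries (-3.95 ± 0.36, limma adjusted p = 0.000256). The treated libraries were above all DMSO libraries for pprc1.L and below them for esrra.L and ppargc1a.L. The S copies were also lower, esrra.S at -1.95 ± 0.32 (limma adjusted p = 0.00226) and ppargc1a.S at -2.60 ± 0.36 (limma adjusted p = 0.00114).

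The 9 members below the filter were slc25a4.S, slc25a15.2.L, slc25a22.S, slc25a42.S, slc25a45.S, slc25a47.L, slc25a48.L, slc25a53.L and vdac3.S, with means of up to 7.02 counts over the 6 libraries. slc25a48.L had the highest of these means, with 0.942, 0.889 and 1.91 in treated libraries, against 13.8, 13.5 and 11.1 in DMSO libraries, or 4 reads over the treated and 37 over the DMSO libraries. slc25a53.L had 8 reads over the treated libraries and 0 over the DMSO libraries. Another 4 members, slc25a4.L, slc25a18.S, slc25a22.L and slc25a38.S, had a mean of at least 10 in only 1 group, so they entered the test through the group in which they were high. Of the 53 carriers above that mean in both groups 9 were called higher and 24 lower, beside 10 and 27 of all 57 tested carriers. Of all tested genes 26.1% were higher and 29.7% lower, a background that includes genes above that mean in 1 group only.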

How the data were processed

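The authors deposited a signal per gene and library, read from its values as counts divided by a size factor of the library. DESeq, with no version, is named per the submitters' processing notes; no source used here gives the aligner, counter, strand setting, genome build or annotation, so no coordinates are printed. Of 184447 values above 0, 100.0% came out as whole reads with a tolerance of 0.01, and these reads were used in the count tests. The 5 summary rows of the read counter were left out; of all reads counted, those in no gene made up 10.9% to 12.8%, ambiguous ones 0.439% to 0.716%, and those aligned to several places 4.93% to 5.91% in 5 libraries and 11.1% in DMSO a. In 1 row the name had been broken and its cells shifted, and it was mended.

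limma 3.58.1 with trend (R 4.3.3) was run on log2(normalized count + 1) for genes with a mean of at least 10, with Benjamini-Hochberg adjustment over all of them. Pairs were fitted alike on log2(L + 1) minus log2(S + 1). edgeR 4.0.16 and DESeq2 1.42.0 were run on the recovered reads as alternatives, beside other scalings, pseudocounts, filters, left-out libraries and blocks. Deviations of same-lettered libraries from their group means correlated at 0.32 to 0.40 across genes, so same-lettered libraries deviated together. Those of other letters correlated at -0.23 to -0.09. Deviations from a group mean cancel out within the group, so these negative values are no separate support. What the letters stand for is not given. The letters come from the column names, and the labels do not tie them to replicate numbers. The main fits left the letters out, and they entered only the alternative with blocks by letter.

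Members, lists and tests were chosen with earlier results of these data known, and the joint counts of import genes and of carriers after seeing these values. Named were, per role and direction, up to 3 called genes of largest fold with a mean of at least 50 and no overlap, 16 fixed symbols, and the 6 called pairs of largest change, with both copies; the other members are given as well, except 1 that is counted but not reported by itself here. From the lists of other mitochondrial genes up to 2 called genes per direction were named, and ppargc1b.L, esrra.S and ppargc1a.S were added after their values were seen.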

Additional observations from a re-analysis of the deposited data

How the results depend on the processing

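Direction was kept by every called member and pair under the alternatives in which it was tested. The counts of all called genes, members, carriers and pairs stayed within 1.5 times their value under the alternatives run: all genes 10502 to 13798, members higher 20 to 34 and lower 23 to 34, carriers higher 9 to 13 and lower 20 to 29, all pairs 1552 to 2575 and member pairs 12 to 18. The counts of import genes, higher and lower, and of pairs with opposite calls did not stay within that limit in every alternative. With libraries left out in turn, import genes higher numbered 11 to 16 and lower 1 to 3, and lower import genes numbered 1 under upper quartile scaling; member pairs with copies called in opposite directions numbered 3 to 5 with libraries left out and 4 to 6 under the other alternatives; these joint counts and their alternatives were chosen after seeing the data. With the replicate block by letter, 13798 genes, 29 higher and 34 lower members and 17 member pairs were called, 7 members and pairs gained a call and none lost one; those named are given with their results. Upper quartile scaling added 7 calls and ended 4, with no filter on low values 5 were lost, under TMM scaling 1, in the edgeR test 2 and in the DESeq2 test none. Fits with 1 library left out each lost 3 to 16 calls of members and pairs. Reads lost to near-identical copies limit the levels of L and S.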
